A study of Mus musculus with 6 samples.

Results

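The genes described here encode proteins, made from nuclear genes, of the mitochondrial respiratory chain, together with 4 regulators of mitochondrial biogenesis. They were chosen by name, and 39 of the 41 listed genes had a named probe set on the array, out of 19919 genes measured in all. They comprise 19 of 19 listed subunits of complex I, 4 of 4 of complex II, 6 of 7 genes of complex III with cytochrome c, 6 of 7 of complex IV and 4 of 4 regulators. Uqcrb and Cox7c had no named probe set and are not analysed here. The arrays hold RNA of the gastric corpus, the region of the stomach where acid is made, from Balb/c mice that were female, wildtype and 8 to 12 weeks old. Dexamethasone, a synthetic glucocorticoid, was given to 1 group in the drinking water at 50 mg per litre for 3 days, with the water renewed on day 2, and the other group drank untreated water. Each group has 3 arrays, called biological replicates in the labels, and whether each array holds RNA of a single mouse is not given in the sources used here. The p-values therefore rest on the spread between these arrays, part of which may be technical. Every value below is a log2 expression level or a difference of such levels (dexamethasone minus control), on the authors' RMA scale.

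The respiratory chain passes electrons from NADH and succinate to oxygen and uses the energy released to pump protons across the inner mitochondrial membrane. Complex I takes electrons from NADH and complex II from succinate, complex III hands them to the mobile carrier cytochrome c, and complex IV passes them to oxygen. In the corpus, the acid-secreting parietal cells are packed with mitochondria, which supply the ATP that the gastric proton pump consumes. The coactivators encoded by Ppargc1a and Ppargc1b, the transcription factor NRF1 and the mitochondrial DNA packaging factor TFAM regulate how much of this machinery a cell makes.

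Because NRF1 and its partners act at the promoters of these genes, promoter windows were taken from RefSeq (build GRCm38.p6), each running from 250 bases before to 50 bases after a transcription start. RefSeq's table held 32 such windows for 30 of the 41 genes. The 11 others are Ndufs1, Ndufa2, Ndufb9, Sdhc, Uqcrc2, Uqcrb, Uqcrq, Cyc1, Cox4i1, Cox6c and Ppargc1b. The letters searched on both strands were GCGCNTGCG for NRF1, CCGGAAG for the ETS family to which GABPA belongs, AAGGTCA for the oestrogen-related receptors, AAGATGGCG for YY1 and TGACGTCA for CREB, and 0 matches of different motifs overlapped. The NRF1 letters stood in 9 of the 32 windows (28.1%), against 6.31% of all 32851 windows of the table. The YY1 letters stood in 4 (12.5%, against 1.4% of all windows), the CREB letters in 3 (9.38%, against 1.79%), the ETS letters in 5 (15.6%, against 8.86%) and the oestrogen-related receptor letters in 1 (3.12%, against 4.72%). The member windows had a median GC content of 58.7%, against 52.7% over all windows, and the part of base composition in these shares was not tested. The 8 genes with the NRF1 letters were Cycs, Ndufa5, Ndufa8, Ndufb10, Ndufs6, Sdha, Sdhd and Uqcrc1. A match describes letters in a window and is not a measured binding site.

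6 windows are printed 5′ to 3′ on the strand of the gene, with the matched letters in capitals. Ndufb10 (chr17:24724374-24724673, minus strand) and Ndufa10 (chr1:92473709-92474008, minus strand) belong to the complex I subunits with the smallest p-values, whose changes had opposite signs. The Ndufb10 window holds the NRF1 letters, 26 to 18 bases before the start, and the Ndufa10 window holds the CREB letters, 67 to 60 bases before it.
Ndufb10: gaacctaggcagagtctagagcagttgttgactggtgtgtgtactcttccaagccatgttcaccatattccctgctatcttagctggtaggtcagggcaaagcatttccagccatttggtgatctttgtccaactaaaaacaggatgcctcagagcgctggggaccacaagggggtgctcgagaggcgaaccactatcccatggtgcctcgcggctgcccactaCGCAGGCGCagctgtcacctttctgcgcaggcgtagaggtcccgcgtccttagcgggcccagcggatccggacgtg
Ndufa10: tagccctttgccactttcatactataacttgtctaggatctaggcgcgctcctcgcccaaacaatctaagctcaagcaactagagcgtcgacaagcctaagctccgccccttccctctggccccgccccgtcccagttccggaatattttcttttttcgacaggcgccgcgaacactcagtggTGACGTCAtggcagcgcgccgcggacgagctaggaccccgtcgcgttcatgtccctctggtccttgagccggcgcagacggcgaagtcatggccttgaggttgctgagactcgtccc

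Ndufs3 (chr2:90904672-90904971, minus strand) shows the ETS letters on both strands. Sdhd (chr9:50603800-50604099, minus strand) combines the NRF1, ETS and oestrogen-related receptor letters.
Ndufs3: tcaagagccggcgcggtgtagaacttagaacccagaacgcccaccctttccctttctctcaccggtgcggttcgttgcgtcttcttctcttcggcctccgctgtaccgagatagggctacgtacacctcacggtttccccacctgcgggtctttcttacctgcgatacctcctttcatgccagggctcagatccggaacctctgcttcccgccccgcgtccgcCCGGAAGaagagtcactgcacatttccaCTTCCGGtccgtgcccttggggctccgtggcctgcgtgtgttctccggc
Sdhd: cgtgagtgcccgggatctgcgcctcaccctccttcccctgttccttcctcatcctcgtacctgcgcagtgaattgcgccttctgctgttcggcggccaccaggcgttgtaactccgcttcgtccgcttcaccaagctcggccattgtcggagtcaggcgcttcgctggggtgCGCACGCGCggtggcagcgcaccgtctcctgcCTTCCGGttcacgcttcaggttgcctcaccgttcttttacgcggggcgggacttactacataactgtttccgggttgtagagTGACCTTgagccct

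Uqcrfs1 (chr13:30545267-30545566, minus strand) holds the CREB letters, and Cycs (chr6:50566520-50566819, minus strand) holds both the CREB and the NRF1 letters.
Uqcrfs1: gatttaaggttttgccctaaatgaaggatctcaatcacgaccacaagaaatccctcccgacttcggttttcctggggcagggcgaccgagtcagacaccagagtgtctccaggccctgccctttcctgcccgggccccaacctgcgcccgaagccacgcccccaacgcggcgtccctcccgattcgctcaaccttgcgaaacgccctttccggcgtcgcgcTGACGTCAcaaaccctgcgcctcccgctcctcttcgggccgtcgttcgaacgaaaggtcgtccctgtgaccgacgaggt
Cycs: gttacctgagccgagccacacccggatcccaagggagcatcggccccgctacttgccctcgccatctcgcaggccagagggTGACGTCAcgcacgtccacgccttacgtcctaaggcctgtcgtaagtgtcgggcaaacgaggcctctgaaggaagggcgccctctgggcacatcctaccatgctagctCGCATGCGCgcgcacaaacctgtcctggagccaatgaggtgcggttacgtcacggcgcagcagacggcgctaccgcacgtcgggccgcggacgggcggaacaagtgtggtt

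Across the table, Pearson correlations between arrays, over genes that are not independent replicates, lay between 0.988 and 0.996 within the dexamethasone group, between 0.986 and 0.993 within the control group and between 0.983 and 0.990 across groups. Array medians ranged from 7.96 to 8.00. The treatment was checked with 2 genes. Fkbp5, a co-chaperone of the glucocorticoid receptor, stood at 10.80 ± 0.50 in dexamethasone arrays and at 8.92 ± 0.32 in control arrays (SD, n = 3 each), a rise of 1.88 (limma adjusted p = 0.0151). Pdk4, a kinase that restrains the entry of pyruvate into mitochondrial oxidation, rose by 1.57 (limma adjusted p = 0.0186). The tissue label was checked with the proton pump genes of parietal cells. Atp4a read 13.89, 13.82 and 13.84 in dexamethasone arrays and 13.86, 13.78 and 13.80 in control arrays. Atp4b read 13.78, 13.72 and 13.79 in dexamethasone arrays and 13.72, 13.72 and 13.73 in control arrays. These levels do not measure RNA of neighbouring tissue, whose markers are described below.

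Of the 39 respiratory chain genes, 0 passed the adjusted threshold of 0.05 between dexamethasone and control, where 1.84% of all genes did. At an unadjusted p under 0.05 there were 2, both lower under dexamethasone, against 13.1% of all genes in either direction (limma). These were Cyc1 and Ndufb10, and they were also the only 2 of the 39 whose groups of 3 arrays did not overlap, which was true of 18.3% of all genes. Log2 changes of the 39 ranged from -0.22 to 0.19 with a median of -0.0038, beside a median of 0.0023 over all genes. 18 genes had a positive and 21 a negative change, a split that became 16 and 23 with arrays centred on their median and 21 and 18 with quantile normalization. Changes are relative to the bulk of the array, since RMA normally equalizes the arrays.

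The measurement sets bounds on what a shift could have been. The 95% interval of the log2 change lay inside -0.5 to 0.5 for 38 of the 39 genes, where this held for 89.7% of all genes. Cox7a2 was the exception, with an interval from -0.52 to 0.42. The median standard error was 0.11 over the 39 genes and 0.077 over all genes, and the median SD between arrays of a group was 0.16 over the 39 genes and 0.095 over all genes. The respiratory chain genes therefore varied more between replicate arrays than the typical gene, while the median size of their change between groups, 0.051, was below that of all genes, 0.074. Their mean level was also higher, 10.16 in both groups against 8.15 over all genes, and genes of similar level were not compared. Ndufb3 (7.66 in both groups) and Cycs (7.58 under dexamethasone, 7.59 in controls) lay below the array medians of 7.96 to 8.00. Ndufb10 averaged 7.88 under dexamethasone and 8.05 in controls. A p that misses the threshold does not show equal levels.

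**Figure D1:**
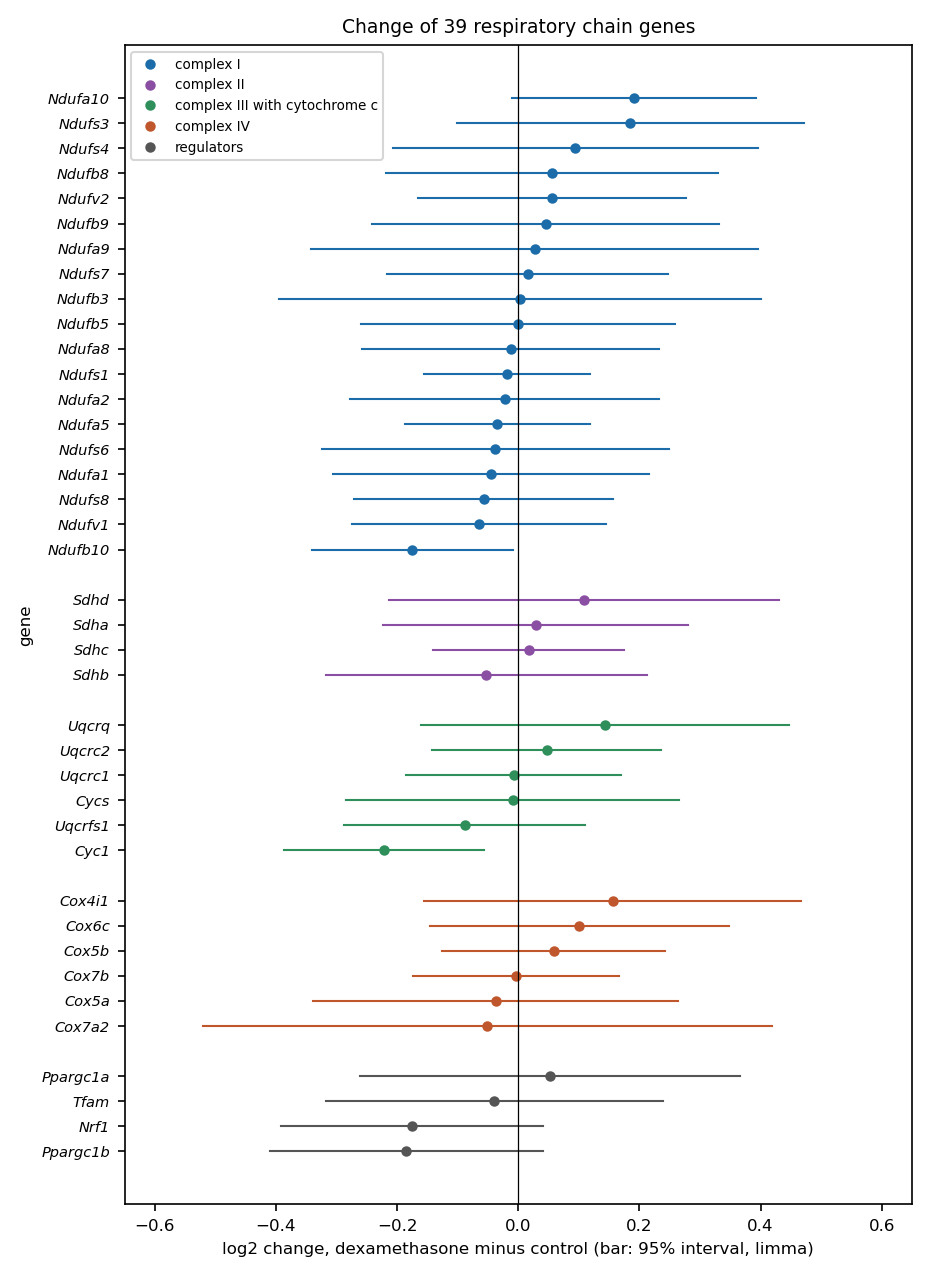
The log2 change (dexamethasone minus control, horizontal axis) of each of the 39 measured genes is drawn as a point with its 95% interval from limma, grouped and coloured by complex. The points lie between -0.22 and 0.19, and the intervals of Cyc1 and Ndufb10 are the only ones that leave out 0.

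Complex I is the largest complex of the chain and the entry point for electrons from NADH. Its 19 genes had a median log2 change of -0.00034, ranging from -0.17 to 0.19, with 9 positive and 10 negative values. Ndufb10, a subunit of the membrane arm, read 7.84, 7.83 and 7.96 in dexamethasone arrays and 8.14, 7.96 and 8.05 in control arrays. Dexamethasone replicate 3 and control replicate 2 came close to touching, at 7.958 and 7.961, and the difference was -0.17 (SE 0.071, limma adjusted p = 0.355). Ndufa10, an accessory subunit of the membrane arm, had values of 11.94, 12.00 and 12.10 under dexamethasone and 11.96, 11.67 and 11.83 in controls. Control replicate 1 lay inside the dexamethasone range, and the difference was 0.19 (SE 0.087, limma adjusted p = 0.411). For Ndufs3, a core subunit of the arm that leads electrons to ubiquinone, the levels were 11.09, 11.04 and 10.92 with dexamethasone and 11.05, 10.56 and 10.89 without. Here control replicate 2 stood apart below the other 5 arrays, and the difference was 0.19 (SE 0.12, limma adjusted p = 0.604).

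For subunits of the NADH-oxidizing end of complex I, the groups overlapped. Ndufv1, which holds the flavin that accepts electrons from NADH, averaged 10.29 ± 0.095 under dexamethasone and 10.35 ± 0.15 in controls (SD, n = 3 each). Ndufs1, its iron-sulphur partner, averaged 12.29 ± 0.043 under dexamethasone and 12.30 ± 0.044 in controls (SD, n = 3 each), with the smallest SE of change in complex I (0.059). Ndufs4, an accessory subunit at this end, ran from 9.59 to 10.09 in dexamethasone arrays and from 9.61 to 9.85 in control arrays. The widest spread in complex I was that of Ndufb3 in the membrane arm, which ran from 7.50 to 7.87 under dexamethasone and from 7.37 to 8.03 in controls. The other 12 complex I genes had log2 changes between -0.057 and 0.056, and their groups all overlapped.

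Complex II oxidizes succinate and is shared with the tricarboxylic acid cycle. The 4 genes had a median log2 change of 0.023. Sdhd, a membrane anchor, read 10.54, 10.56 and 10.86 in dexamethasone arrays and 10.80, 10.31 and 10.53 in control arrays. Both groups spread over more than the difference between them, 0.11 (SE 0.14, limma adjusted p = 0.808). Sdhb, the iron-sulphur subunit, stood at 9.44, 9.46 and 9.71 under dexamethasone and at 9.79, 9.41 and 9.58 in controls, a difference of -0.053 (SE 0.11, limma adjusted p = 0.903). Sdha, the flavoprotein that oxidizes succinate, stood at 10.89, 11.05 and 11.12 under dexamethasone and at 11.21, 10.85 and 10.92 in controls, a difference of 0.029 (SE 0.11, limma adjusted p = 0.949). In all of these the highest dexamethasone array was replicate 3 and the lowest control array replicate 2. Sdhc, the other anchor, was the steadiest, with a difference of 0.017 (SE 0.068, limma adjusted p = 0.951).

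Complex III transfers electrons from ubiquinol to cytochrome c. Its 5 measured subunits and the cytochrome c gene Cycs had a median log2 change of -0.0083. Cyc1, cytochrome c1, which carries the electron to cytochrome c, had the smallest p of the 39 genes. It read 11.20, 11.23 and 11.37 in dexamethasone arrays and 11.49, 11.42 and 11.56 in control arrays, with all 3 dexamethasone arrays below all 3 controls. The difference was -0.22 (SE 0.071, 95% interval -0.39 to -0.056, limma adjusted p = 0.225), limma's adjusted p ranging from 0.0255 to 0.597 over the alternatives. It passed under 1 of them, array weights (-0.28), where 1776 genes of the whole table passed in place of 367. Uqcrq, a small membrane subunit, gave 9.02, 9.06 and 9.43 under dexamethasone and 9.15, 8.83 and 9.11 in controls, where dexamethasone replicate 3 alone lay above every control (difference 0.14, SE 0.13, limma adjusted p = 0.718). Uqcrfs1, the Rieske iron-sulphur protein, gave 9.60, 9.71 and 9.91 under dexamethasone and 9.86, 9.81 and 9.82 in controls. The controls were tight (SD 0.026), the dexamethasone arrays lay on both sides of them, and the difference was -0.089 (SE 0.085, limma adjusted p = 0.736). Cycs averaged 7.58 ± 0.16 in dexamethasone arrays and 7.59 ± 0.20 in control arrays (SD, n = 3 each). Cytochrome c has processed pseudogenes in the mouse genome that can share probes with it, so its level is uncertain.

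Complex IV reduces oxygen to water. Its 6 genes had a median log2 change of 0.027, and all 3 genes named next had positive values that did not pass. Cox4i1, a subunit that binds regulatory nucleotides, read 10.60, 10.45 and 10.68 in dexamethasone arrays and 10.71, 10.18 and 10.38 in control arrays, a difference of 0.16 (SE 0.13, limma adjusted p = 0.698). Control replicate 1 was the highest and control replicate 2 the lowest of the 6 arrays. Cox6c, a small transmembrane subunit, read 10.64, 10.81 and 10.86 under dexamethasone and 10.88, 10.53 and 10.59 in controls, a difference of 0.10 (SE 0.11, limma adjusted p = 0.761). For Cox5b, a zinc-binding subunit on the matrix side, the levels were 13.00, 12.83 and 12.82 with dexamethasone and 12.93, 12.75 and 12.80 without, a difference of 0.058 (SE 0.079, limma adjusted p = 0.823). Cox5a, Cox7a2 and Cox7b had changes of -0.037, -0.051 and -0.0038. Within the control group Cox7a2 ran from 8.74 to 9.49, the widest control range of any of the 39 genes.

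The 4 regulators had a median log2 change of -0.11, with 1 positive and 3 negative values and 0 past the threshold (0 at an unadjusted p under 0.05, limma). Ppargc1b, a coactivator of mitochondrial genes, read 9.17, 9.04 and 9.40 in dexamethasone arrays and 9.32, 9.44 and 9.39 in control arrays. Dexamethasone replicate 3 lay among the controls and the other 2 below them, and the difference was -0.18 (SE 0.097, limma adjusted p = 0.485). Nrf1 read 8.82, 8.84 and 8.84 under dexamethasone and 8.82, 9.18 and 9.04 in controls. The dexamethasone arrays were close together (SD 0.011), control replicate 1 lay just below them and the other 2 controls above, with a difference of -0.18 (SE 0.093, limma adjusted p = 0.489). Ppargc1a, the coactivator known for raising mitochondrial mass in brown fat and muscle, read 9.44, 9.46 and 9.76 under dexamethasone and 9.27, 9.74 and 9.50 in controls, a difference of 0.052 (SE 0.13, limma adjusted p = 0.922). Tfam, which packages mitochondrial DNA, averaged 8.11 ± 0.18 in dexamethasone arrays and 8.15 ± 0.18 in control arrays (SD, n = 3 each).

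Complexes I to IV were compared with each other by their mean level in each array. The complex I mean was 10.10, 10.08 and 10.26 in dexamethasone replicates 1 to 3 and 10.30, 9.99 and 10.12 in control replicates 1 to 3. For complex II it was 10.66, 10.69 and 10.89 under dexamethasone and 10.89, 10.59 and 10.69 in controls. For complex III with cytochrome c the means were 10.32, 10.35 and 10.54 under dexamethasone and 10.51, 10.30 and 10.47 in controls, and for complex IV 10.27, 10.35 and 10.49 under dexamethasone and 10.54, 10.17 and 10.29 in controls. In each complex dexamethasone replicate 3 was the highest of its group, control replicate 1 the highest of the controls and control replicate 2 the lowest of the controls. Differences between group means were 0.011, 0.026, -0.023 and 0.037 for complexes I to IV, while the means ranged over 0.18 to 0.23 within the dexamethasone group and over 0.21 to 0.37 within the control group. The array differences were shared by the complexes, and whether the complexes differed from each other in their change was not tested.

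The regulators did not follow this order. Their mean was 8.85, 8.85 and 9.08 in dexamethasone arrays and 8.94, 9.10 and 8.99 in control arrays, with control replicate 2 the highest control. Of the 35 structural genes and Cycs, 29 were highest in replicate 3 among the dexamethasone arrays, where 40.1% of all genes were. In the control group 32 of the 35 were lowest in replicate 2, where 37.8% of all genes were, and 29 were highest in replicate 1, where 38.6% of all genes were. Both dexamethasone replicate 3 highest and control replicate 2 lowest held for 27 of the 35 (77.1%), for 0 of the 4 regulators and for 19.0% of all genes. The same order of array means was found in 6 of 8 lists of other mitochondrial genes, so it was not particular to the respiratory chain subunits. The ATP synthase mean, for example, was 10.89, 10.88 and 11.06 under dexamethasone and 11.07, 10.79 and 10.94 in controls, and the mean over the tricarboxylic acid cycle list was 11.13, 11.25 and 11.36 under dexamethasone and 11.32, 11.11 and 11.16 in controls. The further complex III subunits and the further regulators were the 2 lists with another order.

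**Figure D2:**
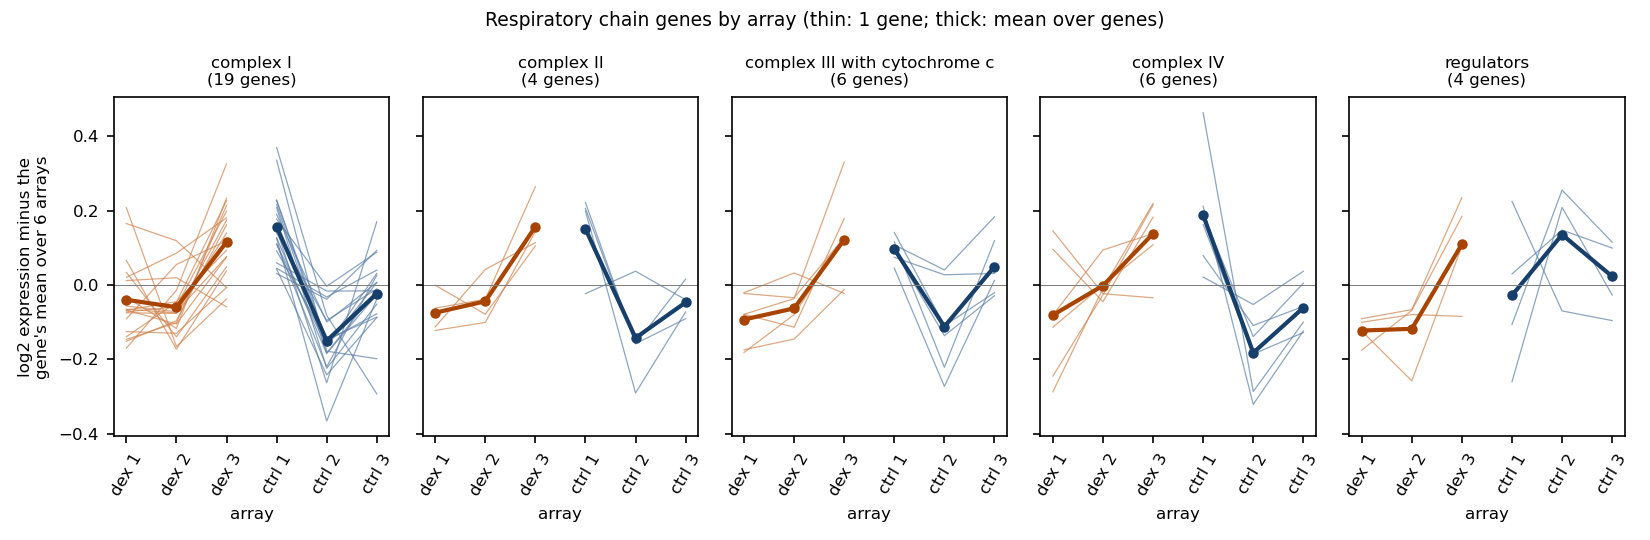
Each thin line follows 1 gene over the arrays of a group as its log2 level minus its own mean over the 6 arrays (vertical axis), in 1 panel per complex, and thick lines with points give the mean over the panel's genes. In complexes I to IV the means are highest in dexamethasone replicate 3 and control replicate 1 and lowest among controls in replicate 2, and the regulators show control replicate 2 as the highest control. Lines join arrays only to trace a gene, since replicates have no order.

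Markers of other tissue components also differed between these arrays. The mean over 22 squamous epithelial markers, which mark the lining of the forestomach next to the corpus, was 10.13, 10.16 and 8.65 in dexamethasone replicates 1 to 3 and 8.58, 9.99 and 8.70 in control replicates 1 to 3. The 3 arrays with the high squamous means were the 3 lowest for the 35 respiratory chain genes, at 10.23, 10.25 and 10.15, and the 3 with low squamous means stood at 10.42 (dexamethasone replicate 3), 10.45 and 10.27 (control replicates 1 and 3). Of the 22 squamous markers 1 passed the threshold, Krt6a, a keratin, which was higher under dexamethasone. Smooth muscle markers, 11 genes, averaged 11.78, 11.73 and 11.25 under dexamethasone and 11.03, 11.26 and 10.97 in controls, with 2 of 11 past the threshold, Actg2 and Cnn1, both higher. With each array's squamous mean as a covariate, 33 of the 39 respiratory chain genes had a positive change and the median was 0.073, with 0 past the threshold (limma, 7 at an unadjusted p under 0.05, 5 higher and 2 lower). That fit gave 14.8% of all genes an unadjusted p under 0.05 and 52.0% a positive change, so the count of 7 was near the share of all genes. In such bulk RNA, fewer cells of a type and less RNA per cell cannot be told apart.

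Markers of parietal cells, 17 genes, included 0 past the threshold. Their mean was 11.33, 11.37 and 11.50 in dexamethasone arrays and 11.34, 11.29 and 11.40 in control arrays. Their median log2 change was 0.043, with 12 positive and 5 negative values. At an unadjusted p under 0.05 there were 2, both higher (11.8%, against 13.1% of all genes, limma). The array with the highest mean and the array with the lowest mean for these markers were dexamethasone replicate 3 and control replicate 2. With the parietal mean as a covariate, 9 of the 39 respiratory chain genes had a positive and 30 a negative change, the median was -0.057 and 0 passed (limma, 3 at an unadjusted p under 0.05, all lower, where 16.7% of all genes were below that level in either direction). In that fit 49.6% of all genes had a positive change. Markers of chief cells, which secrete pepsinogen, averaged 11.32, 11.26 and 11.57 in dexamethasone arrays and 11.60, 11.25 and 11.40 in control arrays, with 0 of 7 past the threshold (limma, 1 at an unadjusted p under 0.05, lower). Their highest arrays were control replicate 1 and dexamethasone replicate 3 and their lowest control replicate 2, as for the respiratory chain subunits. Among the other marker lists, 2 of 6 surface mucous, 1 of 4 neck mucous and 2 of 14 immune cell genes passed, all lower, and 1 of 8 endocrine genes passed, higher. The sign of the median change of the 39 genes depended on which markers were held constant. It also depended on single arrays, with a median of 0.063 without control replicate 1 and -0.060 without control replicate 2. The part of tissue makeup in the array differences was not tested.

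**Figure D3:**
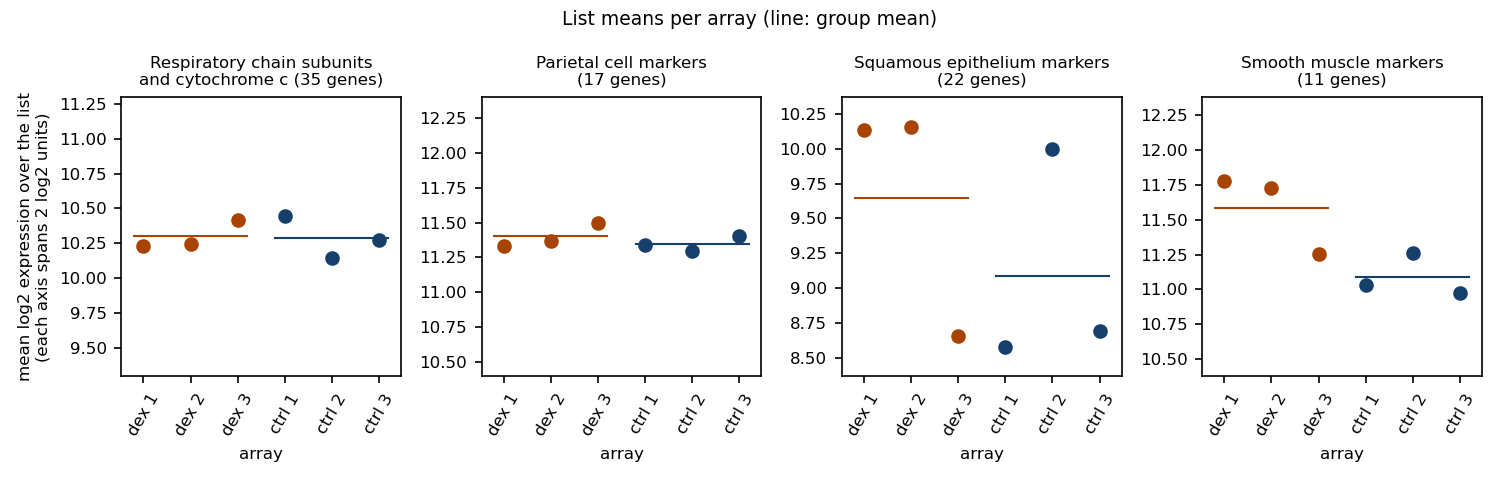
Points give the mean log2 level over a list in each array (dexamethasone arrays left, control arrays right) and lines the group means, with every vertical axis spanning 2 log2 units. The respiratory chain means lie between 10.15 and 10.45 and overlap between groups, while the squamous means are near 10 in dexamethasone replicates 1 and 2 and control replicate 2 and below 8.8 in the other arrays.

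Other genes of mitochondrial energy metabolism, in 8 lists with 131 measured genes, gave 0 past the threshold. At an unadjusted p under 0.05 there were 11 (8.4%, 6 higher and 5 lower, limma), against 13.1% of all genes. The 15 genes listed as other complex I subunits had a median log2 change of 0.046, and the smallest p among them was that of Ndufa12, an accessory subunit, at 0.17 (limma adjusted p = 0.377). Of the complex III subunits outside the members, 2 were measured. Uqcrh, the hinge protein, read 9.65, 9.56 and 9.71 in dexamethasone arrays and 9.55, 9.35 and 9.43 in control arrays, with dexamethasone replicate 2 at 9.557 and control replicate 1 at 9.554, and the difference was 0.19 (limma adjusted p = 0.326). All 10 genes listed as other complex IV subunits had a positive change, from 0.0033 (Cox7a2l) to 0.29 (Cox6a1), where 50.9% of all genes did. This held for 9 of 10 with arrays centred on their median and 10 of 10 with quantile normalization. Their median was 0.11, and 0 passed the threshold (1 at an unadjusted p under 0.05, limma). The count rests on the list used, and Ndufa4, counted here with complex I, changed by -0.043. Cox6b2, Cox8b, Cox4i2, Cox6a2 and Cox8c had group means from 7.23 to 7.95, below the array medians of 7.96 to 8.00. Whether these genes were too dim to measure was not judged. Among muscle markers, 11 of 11 for smooth muscle and 8 of 10 for skeletal or heart muscle had a positive change. The complex IV list holds muscle isoforms such as Cox6a2, which read 7.91, 8.20 and 7.74 in dexamethasone arrays and 7.76, 7.75 and 7.71 in control arrays. Cox6a2 was highest in the 2 arrays that were highest in skeletal or heart muscle markers, dexamethasone replicates 1 and 2. Cox7a1, in the same list, did not follow this order. It read 10.83, 10.58 and 10.97 under dexamethasone and 10.83, 10.41 and 10.65 in controls, highest in dexamethasone replicate 3. The part of muscle in these values was not tested. Of the 10, Cox8a, the broadly expressed form of subunit 8, read 11.22, 11.25 and 11.31 under dexamethasone and 11.06, 10.93 and 11.10 in controls, which do not overlap (difference 0.23, SE 0.067, limma adjusted p = 0.182). The 13 ATP synthase genes stayed close to 0, with a median of 0.029, a range from -0.12 to 0.10 and 0 at an unadjusted p under 0.05 (limma), the smallest p being that of Atp5g1, an isoform of the membrane ring subunit, at -0.12 (limma adjusted p = 0.652).

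Among 36 assembly factors, 2 were lower and 0 higher at an unadjusted p under 0.05 (5.56%, against 13.1% of all genes), and 0 passed (limma). Sco1, which delivers copper to complex IV, read 8.70, 8.66 and 8.77 in dexamethasone arrays and 8.99, 8.82 and 9.02 in control arrays, a difference of -0.23 (SE 0.074, limma adjusted p = 0.216). All dexamethasone arrays lay below all controls. The 25 further regulators of mitochondrial biogenesis had a median log2 change of -0.023, with 10 positive and 15 negative values. At an unadjusted p under 0.05 there were 4 (16%, 2 higher and 2 lower, limma), against 13.1% of all genes. The 2 lower were Polg2 (-0.27) and Lrpprc (-0.17). The smallest p belonged to Esrrb, an orphan nuclear receptor related to the oestrogen receptor. It read 8.48, 8.59 and 8.40 under dexamethasone and 7.98, 8.15 and 8.16 in controls, a difference of 0.39 just short of the threshold (SE 0.078, limma adjusted p = 0.0576). The 16 genes of the tricarboxylic acid cycle and pyruvate entry had a median of 0.068 with 0 at an unadjusted p under 0.05 (limma), and Idh3g, a regulatory subunit of isocitrate dehydrogenase, led at 0.26 (limma adjusted p = 0.446).

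None of 14 mitochondrial carriers and related genes passed. At an unadjusted p under 0.05 limma gave 2 of the 14, 1 higher and 1 lower, against 13.1% of all genes. The lower gene was Slc25a10, with no overlap between groups and a difference of -0.30 (SE 0.088, limma adjusted p = 0.18). The largest difference was in Slc25a4, the ADP/ATP carrier isoform of heart and skeletal muscle. It read 11.38, 11.65 and 11.57 in dexamethasone arrays and 11.30, 10.78 and 10.96 in control arrays, with no overlap, a difference of 0.52 (SE 0.14, limma adjusted p = 0.137). Beside it, the mean over 10 skeletal or heart muscle markers was 8.65, 9.13 and 7.83 in dexamethasone arrays and 7.90, 8.01 and 7.80 in control arrays, with 0 past the threshold (limma, 4 at an unadjusted p under 0.05, 3 higher and 1 lower), and their part in the Slc25a4 difference was not tested.

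**Figure D4:**
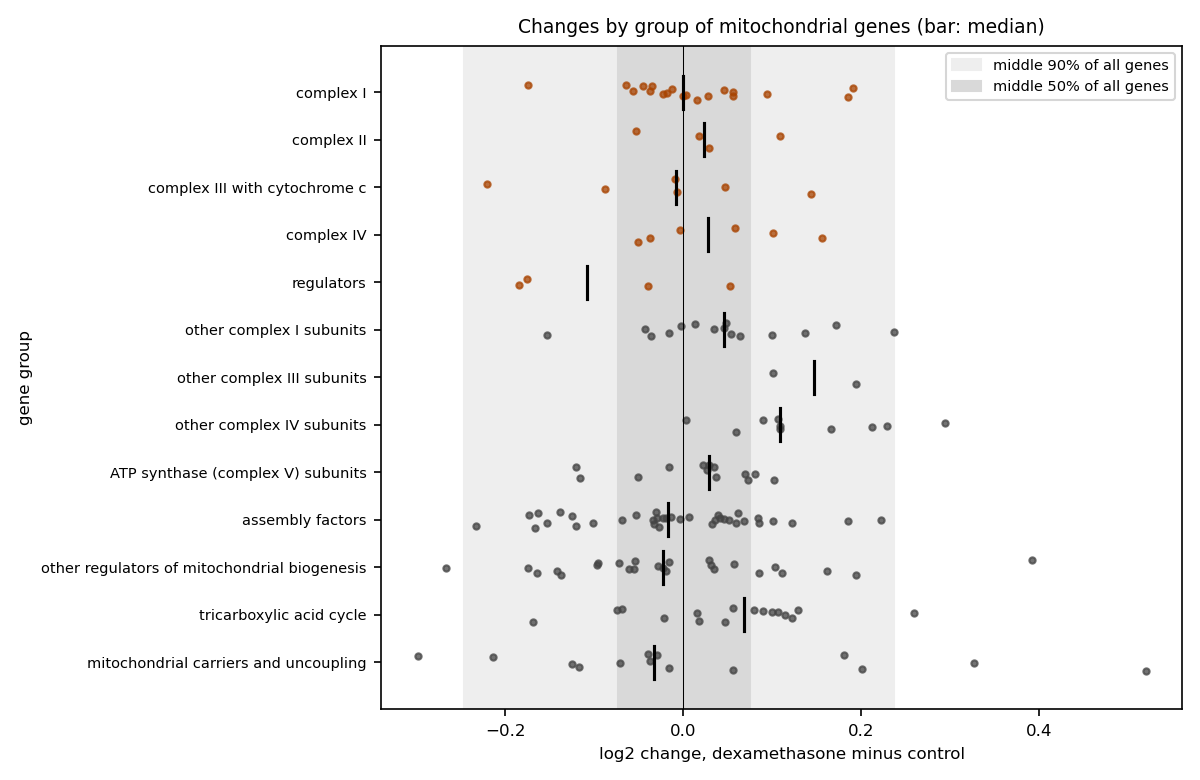
Every point is the log2 change (dexamethasone minus control, horizontal axis) of 1 gene, with the 5 groups of respiratory chain genes in orange above 8 lists of other mitochondrial genes in grey, and short bars mark medians. The shaded bands hold the middle 50% (-0.073 to 0.075) and the middle 90% (-0.25 to 0.24) of all genes, and the medians of the 13 groups lie between -0.11 and 0.15.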

How the data were processed

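The deposited table holds log2 expression values, 1 for each probe set on each array. RMA, limma and R 2.9 are named in the submitters' processing notes, with no roles given, and the values are taken here as the authors' RMA output. The chip definition is not given in the sources used here. Of 20985 probe sets, 19921 had 1 symbol in the platform annotation, 0 had several and 1064 were not listed and stayed unnamed. For 2 symbols with 2 probe sets the one with the higher mean was kept, which gave 19919 genes. Probes of a gene can match paralogs or pseudogenes.

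The comparison of dexamethasone with control used lmFit and eBayes of limma 3.58.1 under R 4.3.3 (default prior, no filter, two-sided tests), with Benjamini-Hochberg adjustment over all 19919 genes. Every SE, interval and adjusted p is limma's, with each gene's variance moderated toward that of all genes. With 3 arrays against 3, the smallest p an exact permutation test allows is 0.1, and no such test was made. The number of arrays limits the precision. The replicate numbers are not stated to pair mice, so they were not taken as pairs. Same-numbered arrays had deviations correlated at -0.28, 0.35 and 0.23, and differently numbered arrays between -0.49 and 0.38. These values do not decide whether the arrays were paired. The genes, lists and alternatives were chosen with earlier results of these data known. In each gene group the 3 members of smallest p are described in full, and in each further list the gene of smallest p is named. Other genes named beside them were not chosen by this rule. Figures were drawn with matplotlib 3.10.9.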

Additional observations from a re-analysis of the deposited data

How the results depend on the processing

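The count of respiratory chain genes past the threshold was 0 under 14 of the 15 alternatives and 1 (Cyc1, lower) with array weights, the setting under which 1776 genes of the whole table passed. The whole-table count of 367 was 220 with the replicate block and ranged from 88 to 543 with each array left out in turn (88 lacking dexamethasone replicate 2, 118 lacking dexamethasone replicate 1, 92 lacking control replicate 3 and 178 lacking control replicate 2). The block changed no call among the respiratory chain genes (smallest adjusted p 0.261). The medians of complexes I to IV changed sign among the alternatives. Without control replicate 1, 31 of the 39 genes had a positive change and these medians were 0.092, 0.092, 0.054 and 0.14, and without control replicate 2, 9 had a positive change and they were -0.060, -0.026, -0.080 and -0.0062. Over all genes, 51.7% had a positive change without control replicate 1 and 49.5% without control replicate 2. The median of the regulators stayed negative, between -0.16 and -0.046. Of 225 values for the 15 genes described in full, 11 changed sign and none of these passed. With a covariate, Sdhb stood at 0.053 (squamous), Sdha at -0.020 and Ppargc1a at -0.0011 (parietal), and Ppargc1a at -0.023 with array weights. With each array left out in turn, Sdhd ran from -0.0088 to 0.24, Sdhb from -0.15 to 0.045, Sdha from -0.043 to 0.14 and Ppargc1a from -0.065 to 0.17. The cause of these shifts was not tested. Signal over background was not used here, so which genes were too dim to measure was not judged.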
